A study of Mus musculus with 40 samples.

Results

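The 4987 insertions described here are bases added, with no base lost, at the cut of the last of the 10 Cas9 target sites in the DARLIN array at Col1a1. They were selected on the measured edits, as every listed insertion written exactly at that cut, which lies 243 bases after the first cut, itself between bases 22 and 23 of the array. They are 4987 of the 15632 insertions listed for the library (31.9%, exact binomial 95% interval 31.2 to 32.6%), and each lies in an allele of its own. Their position is what chose them and is therefore no finding. Their length, bases, recurrence, neighbouring deletion and molecule number were not used to choose them.

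DARLIN is a mouse line in which an array of Cas9 targets records cell ancestry. The Cas9 of this line carries terminal deoxynucleotidyl transferase (TdT), a polymerase that adds nucleotides to 3′ ends of DNA without a template. A cut that is repaired with added bases leaves a sequence that the descendants of the cell inherit, so the added bases contribute to telling arrays apart. An edited array sequence is called an allele.

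The series holds 40 liver samples of DARLIN mice from 5 animals, with 16 samples marked E15.5, 14 marked E10 and 10 marked E12. Whether these marks are days of induction or of collection is not stated. Array transcripts in total liver RNA were reverse transcribed with a primer carrying a unique molecular identifier (UMI), amplified and sequenced. The 1 sample analysed here came from animal YK184, carries the mark E15.5 and is its right inferior lobe. The other sample of its group was not analysed here, so there are no replicates, no control without editing and no test between conditions. Lobe RNA may mix all liver cell types that transcribe the array, and a UMI marks 1 RNA molecule and not 1 cell. Fewer cells with an allele and less array RNA per cell cannot be told apart. Col1a1, which encodes a chain of type I collagen, lies on chromosome 11 at 94936224 to 94953042 (GRCm38.p6). The place of the array relative to its exons was not given.

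The library listed 12767 alleles with 32342 UMIs. Intervals are exact binomial (Clopper-Pearson) 95% intervals that treat alleles, insertions, bases or UMIs as independent draws. They cover counting error in this library only, and neighbouring bases of 1 insertion are not independent. Alleles are not replicates, and some carry insertions at several cuts, so differences between cuts were not tested.

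The 10 strings carried by most alleles are shown first, because they make up most of the insertions. Lower case gives the 4 bases before the cut and the base after it, as the listed substitutions state them, 5′ to 3′ along the array. Capitals mark the inserted bases.

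string G: cagaGc

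string A: cagaAc

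string GG: cagaGGc

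string AG: cagaAGc

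string GA: cagaGAc

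string T: cagaTc

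string AA: cagaAAc

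string GGA: cagaGGAc

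string AT: cagaATc

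string TA: cagaTAc

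Of these 10 strings, 7 consist of A and G alone. None contains C, which is a matter of notation, as C alone is written 1 base to the right and with 278 alleles would rank above AA. The 5 longest insertions in alleles with at least 3 UMIs are shown next, because all but 1 of them have a single form, a pair of G followed by a run of A. The last place was a tie, so that 4 alleles with 7 inserted bases are given.

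8 inserted bases, 5 UMIs: cagaGGAAAAAAc

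8 inserted bases, 3 UMIs: cagaATATGGAGc

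7 inserted bases, 4 alleles with 5, 4, 3 and 3 UMIs: cagaGGAAAAAc

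The way an insertion is written bears on its first base. The base directly after the cut is C, stated by 68 substitutions and contradicted by 0. An inserted string that starts with C spells the same array as one placed 1 base to the right. In the list, 0 of the 4987 strings started with C, while 441 of the 443 insertions written 1 base to the right ended in C. Of those 443, 278 were C alone. Only 15 insertions were written 1 base to the left of the cut. The 441 therefore have an equal spelling at the cut itself, and the absence of strings starting with C is a property of the notation. With them the last cut has 5428 insertions and 10930 UMIs. Values called merged below count these as insertions at the cut. Likewise, the base directly before the cut is A, stated by 8 substitutions, so the 2029 strings that end in A (40.7%, 39.3 to 42.1%) could be written 1 base to the left with their final A in first place. Base composition and length do not depend on that choice, but the place of the A does.

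Insertion at the cut was the commonest listed outcome at the last target wherever that target had survived. A deletion spanning several sites had removed the target in 5691 alleles. Of the 7076 alleles that kept it, 4987 had the insertion (70.5%, 69.4 to 71.5%), and 9987 of their 14473 UMIs did (69.0%, 68.2 to 69.8%). A local deletion was present in 886 of the 7076 (12.5%, 11.8 to 13.3%) and a local deletion with inserted bases in 375 (5.30%, 4.79 to 5.85%). The target was unaltered in 281 (3.97%, 3.53 to 4.45%). An insertion written 1 base after the cut was present in 443 (6.26%, 5.71 to 6.85%), and the merged share with an insertion at the cut was 76.7%. As written, the share with an insertion at the first cut was 64.4% of 6015 alleles (63.2 to 65.6%). At site 2 it was 59.3% of 2761, and at site 9, the neighbour of the last site, it was 35.5% of 2973. At sites 3 to 8 it lay between 22.1% at site 5 and 50.2% at site 3. As written, the share at the last cut was the highest of the 10 in this library. These shares are understated, because strings that start with the base after a cut are written elsewhere. Merging raised the insertions from 1055 to 1548 at site 9, where that base is A. It raised them from 3876 to 4262 at the first cut and from 4987 to 5428 at the last.

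Insertions at the last cut were short and most often 2 bases long. There were 1709 insertions of 1 base (34.3%, 33.0 to 35.6%), 2282 of 2 bases (45.8%, 44.4 to 47.2%) and 642 of 3 bases (12.9%, 11.96 to 13.8%). A further 354 had 4 or more bases (7.10%, 6.40 to 7.85%). The median was 2 bases, the mean 2.04 and the longest 56. Beyond 2 bases the counts were lower with each added base, with 208 insertions of 4 bases, 69 of 5, 36 of 6, 16 of 7 and 7 of 8.

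Single-base insertions were a smaller share at the last cut than at the first. The merged share was 36.6% of 5428 insertions at the last cut (35.3 to 37.9%), against 52.6% of 4262 at the first cut (51.1 to 54.1%). It was 65.2% of 3348 at the cuts of sites 2 and 9 (63.6 to 66.8%) and 65.3% of 2445 at those of sites 3 to 8 (63.4 to 67.2%). The merged mean length was 2.005 bases at the last cut, against 1.72 at the first, 1.52 at sites 2 and 9 and 1.53 at sites 3 to 8. As written, the last cut had the lowest single-base share of the 10, at 34.3%, and the next was site 3, at 48.5% of 468 (43.9 to 53.1%). These intervals do not overlap, but they carry no variation between libraries.

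The same order was seen within alleles that carried insertions at both ends of the array. There were 1249 alleles with an insertion at the last and the first cut (25.0% of the alleles with one at the last cut, 23.8 to 26.3%, and 32.2% of those with one at the first cut, 30.8 to 33.7%), with 1962 UMIs. The share was 14.9% among alleles with at least 5 UMIs and 19.6% by UMIs. A first-cut insertion was present in 33.8% of the 7780 alleles without the last-cut insertion (32.7 to 34.8%) and in 21.2% of the 2089 of these that kept the last target (19.4 to 22.97%). In the 1249 alleles with both insertions the last cut had 1 inserted base in 36.0% (33.4 to 38.8%) and the first cut in 53.3% (50.5 to 56.1%). The string at the last cut was the longer one in 519 alleles (41.6%, 38.8 to 44.3%), and the string at the first cut in 276 (22.1%, 19.8 to 24.5%). The lengths were equal in 454. In the 143 such alleles with at least 3 UMIs the last-cut string was longer in 56 and the first-cut string in 31. The strings were identical in 145 of the 1249 (11.6%, 9.88 to 13.5%), among them 55 alleles with G at both cuts and 41 with A at both.

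The added bases were mostly purines. Over the 10165 bases inserted at the last cut, 4652 were G (45.8%, 44.8 to 46.7%), 4105 A (40.4%, 39.4 to 41.3%), 1102 T (10.8%, 10.2 to 11.5%) and 306 C (3.01%, 2.69 to 3.36%). A and G together made up 86.1% (85.5 to 86.8%). After merging, C was 7.22% (6.74 to 7.73%) and A and G made up 82.3% (81.6 to 83.0%). The merged A and G share was 80.1% at the first cut (79.1 to 81.0%), 80.7% at sites 2 and 9 (79.6 to 81.8%) and 80.7% at sites 3 to 8 (79.4 to 81.9%). The sum of A and G thus lay within a few percentage points between these groups of cuts. Its parts did not, since merged G was 43.7% at the last cut, 41.1% at the first, 45.4% at sites 2 and 9 and 36.3% at sites 3 to 8.

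The excess of purines was further described by setting each string against its reverse complement. Pairs of reverse complements were compared in the merged notation, since without it strings starting with C are missing. G alone was carried by 706 alleles and C alone by 278, a ratio of 2.54, and A by 687 against T by 316, a ratio of 2.17. GG was carried by 662 alleles against 14 for CC, a ratio of 47.3, where the product of the single-base ratios is 6.45. AG was carried by 527 alleles against 14 for CT, a ratio of 37.6, and GA by 364 against 27 for TC, a ratio of 13.5, where the product is 5.52 for both. AA was carried by 238 alleles against 34 for TT, a ratio of 7 beside a product of 4.73. These ratios have no error across libraries and were not tested against the products. GGA was carried by 145 alleles and its reverse complement TCC by 1. The first cut had the same member of each pair in more alleles, with GG in 363 alleles against 8 with CC and AG in 298 against 19 with CT. At both cuts the list thus held more of the purine spelling in each of these pairs.

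Within 2-base strings, the second base was counted separately for each first base, and dependence between the 2 was not tested. The 16 strings of 2 bases divide by first base into those with G, carried by 1139 alleles, those with A by 928, those with T by 215 and those with C by 0 as written. After a first G, the second base was G in 58.1% (55.2 to 61.0%) and A in 32.0% (29.3 to 34.8%). GT followed with 63 alleles and GC with 50. After a first A, the second base was G in 56.8% (53.5 to 60.0%) and A in 25.6% (22.9 to 28.6%), with AT in 112 alleles and AC in 51. After a first T, the second base was A in 42.3% (35.6 to 49.2%) and G in 29.3% (23.3 to 35.9%), with TT in 34 alleles and TC in 27. In the merged notation CG had 55 alleles, CA 49, and CT and CC 14 each. G was thus the commonest second base after G and after A, with intervals clear of those of A. After T, A was the second base in 91 alleles and G in 63, with overlapping intervals. After C, G was the second base in 55 and A in 49. These differences were not tested.

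In longer insertions A stood at the end more often, and G was common at the start at every length. The share of G at the first position was 49.9% in strings of 2 bases (47.8 to 52.0%), 49.2% in strings of 3 (45.3 to 53.2%), 58.2% in strings of 4 (51.2 to 65.0%), 62.3% in strings of 5 (49.8 to 73.7%), 44.4% in strings of 6 (27.9 to 61.9%) and 81.2% in the 16 strings of 7 (54.4 to 95.95%). A took the last position in 30.4% of 2-base strings (28.5 to 32.3%), 55.9% of 3-base strings (52.0 to 59.8%), 75.0% of 4-base strings (68.5 to 80.7%) and 97.1% of 5-base strings (89.9 to 99.6%). In strings of 6 bases it was 36 of 36, and in strings of 7 bases 93.8% of 16 (69.8 to 99.8%). Because of the A before the cut, 1 final A could equally be written first, but the A before it could not. In 5-base strings the fourth base was A in 88.4% (78.4 to 94.9%), and in 7-base strings each of the 3 bases before the last was A in 16 of 16.

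As written, strings made of a run of G followed by a run of A were a larger share of 3- to 5-base strings than of 2-base strings. They were 15.95% of 2-base strings (14.5 to 17.5%), 29.9% of 3-base strings (26.4 to 33.6%), 39.4% of 4-base strings (32.7 to 46.4%) and 52.2% of 5-base strings (39.8 to 64.4%). Of 36 strings of 6 bases they were 27.8% (14.2 to 45.2%), and of 16 strings of 7 bases 68.8% (41.3 to 88.98%). The opposite order, A followed by G, was 23.1% of 2-base strings (21.4 to 24.9%), 8.72% of 3-base strings (6.66 to 11.2%) and 0 of 69 strings of 5 bases. GGA was carried by 145 alleles with 288 UMIs and at the first cut by 45 alleles. Chosen after their values were seen, GGAA was in 42 alleles with 70 UMIs and GGAAA in 25 alleles with 37 UMIs. GGAAAAA was in 8 alleles with 19 UMIs. Over strings of 4 to 7 bases, A was last in 83.3% of 329 at the last cut (78.8 to 87.2%) and in 80.7% of 176 at the first cut (74.1 to 86.2%). Runs of G and then A were 42.2% at the last cut (36.9 to 47.8%) and 45.5% at the first (37.9 to 53.1%). The intervals of both cuts overlapped in these 2 measures.

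Some common strings repeat the bases directly before the cut. The 4 bases before the cut end in aga, so that A, GA and AGA at the cut each spell a tandem copy of what precedes it. They were carried by 687, 364 and 52 alleles. AGA was chosen after its values were seen. C alone, with 278 alleles in the merged notation, likewise repeats the base directly after the cut. A copied base and an added base that happens to match cannot be told apart in any of these strings. A alone and C alone also enter the single-base ratios given above.

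The inserted strings were few in kind and recurred across many alleles. Only 183 distinct strings made up the 4987 insertions, of which 83 were seen in 1 allele, 65 in 2 to 9 and 35 in 10 or more. The 10 commonest made up 77.2% of insertions (76.0 to 78.3%) and 81.1% of UMIs (80.4 to 81.9%). All 12 possible 2-base strings without C at the start were present, and 43 of the 48 such 3-base strings (89.6%, 77.3 to 96.5%). Of the 4-base strings without C at the start, 56 of 192 were seen (29.2%, 22.8 to 36.1%), and of the 5-base strings 21 of 768 (2.73%, 1.70 to 4.15%).

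The single bases G and A, together with GG, were the commonest strings. G was carried by 706 alleles with 1562 UMIs (14.2% of insertions, 13.2 to 15.2%), and it lay beside 418 distinct nearest deletions. A was carried by 687 alleles with 1454 UMIs (13.8%, 12.8 to 14.8%). T was carried by 316 alleles with 644 UMIs (6.34%, 5.68 to 7.05%). At the first cut G made up 22.6% of insertions (21.3 to 24.0%), A 20.1% (18.8 to 21.4%) and T 7.92% (7.09 to 8.82%). T ranked below GG, AG and GA. C alone, written 1 base to the right, had 278 alleles in the merged notation. The shares of G, A and GG at the last cut overlapped in their intervals, so their order within this library was not resolved.

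Among 2-base strings, those of purines led. GG was carried by 662 alleles with 1447 UMIs (13.3%, 12.3 to 14.2%), against 9.37% at the first cut (8.47 to 10.3%). AG was carried by 527 alleles with 1099 UMIs (10.6%, 9.73 to 11.5%), against 7.69% at the first cut (6.87 to 8.57%). GA was carried by 364 alleles with 764 UMIs (7.30%, 6.59 to 8.06%), against 6.14% at the first cut (5.40 to 6.94%). AA made up 4.77% of insertions at the last cut and 4.46% at the first, AT 2.25% at the last and 1.83% at the first, and TA 1.82% at the last and 1.34% at the first. The 3-base string GGA made up 2.91% at the last cut (2.46 to 3.41%) and 1.16% at the first (0.848 to 1.55%). Of the 10 commonest strings at the last cut, 9 were also among the 10 commonest at the first.

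Most insertions at the last cut had a string that was also seen at the first. Insertions of 1 base (34.3%) and 2 bases (45.8%) allow few different strings. Sharing between the cuts is thus partly a matter of short length, and no expected share was computed. Of the 183 distinct strings, 90 were also seen at the first cut (49.2%, 41.7 to 56.7%), which is 67.2% of the 134 strings there (58.5 to 75.0%). Strings never seen at the first cut made up 131 insertions at the last cut (2.63%, 2.20 to 3.11%), and none of them was carried by more than 6 alleles.

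The edits of an allele other than its insertion at the last cut form its background. Most backgrounds carried 1 string, yet a few carried many. A background cannot hold more strings than it has UMIs, so its number of strings is limited by its UMI number. There were 3873 distinct backgrounds, of which 3490 had 1 string and 383 had 2 or more, and these 383 held 1497 alleles and 46.8% of the UMIs (45.8 to 47.8%). The 20 backgrounds with 10 or more strings held 2251 UMIs. G, A, GG and AG were each present in 20 of these 20, GA in 18, and T and AA in 17 each. These 20 were chosen for holding many strings, and their alleles count towards which strings are commonest. The presence of common strings in them is therefore no separate finding. An allele list counts a string once per background, so common strings are counted below their number of molecules there. Among the 3490 alleles that were alone on their background, 1 inserted base was found in 36.3% (34.7 to 37.9%), against 54.5% of 2838 such alleles at the first cut (52.7 to 56.4%).

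The largest background, a deletion of bases 23 to 238, lost everything between the cuts of sites 1 and 9 and kept 1 repeat unit before the last cut. It held 44 strings and 646 UMIs. GG had 127 UMIs on it, A 101, G 95, AG 74, GA 50, T 34 and AA 29. These first 5 are 5 of the 10 largest alleles with an insertion at the last cut. The background that ended 1 base earlier, a deletion of bases 23 to 237, held 40 strings and 317 UMIs, with G at 58, AG at 43, GG at 41 and A at 38. These 4 alleles are also among the 10 largest. The remaining one, on the deletion of bases 23 to 250, had 68 UMIs with A inserted, and that background held 30 strings and 302 UMIs. All 10 largest alleles had 2 events, and they held 695 of the 9987 UMIs (6.96%, 6.47 to 7.48%).

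The leading string differed between backgrounds. It was GG on the deletion of bases 23 to 238, G on that of bases 23 to 237 and A on that of bases 23 to 250. The 20 backgrounds with 10 or more strings also count towards which strings are commonest in all. In 17 of these 20 the leading string was among the 5 commonest. An exception was the deletion of bases 23 to 239, chosen after its values were seen, where ATA led with 35 of 138 UMIs, followed by A with 23 and GA with 21. Identical edits made in several cells and descent from 1 cell cannot be told apart from an allele's UMIs.

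The deletion next to the insertion most often ended at a neighbouring cut. The list gave 1560 distinct nearest deletions on the left, 1035 of them in 1 allele. They ended exactly at base 238, the last base before the cut of site 9, in 1335 alleles (26.8%, 25.5 to 28.02%), which leaves 27 bases before the inserted string. They ended at base 237 in 614 (12.3%, 11.4 to 13.3%) and at base 211, before the cut of site 8, in 572 (11.5%, 10.6 to 12.4%). Within 3 bases of the cut of site 9 there were 2869 (57.5%, 56.1 to 58.9%), of the cut of site 8 1064 (21.3%, 20.2 to 22.5%) and of the cut of site 7 287 (5.75%, 5.12 to 6.44%). The median kept was 27 bases. In 4312 alleles the nearest deletion joined 2 or more sites (86.5%, 85.5 to 87.4%), and in 2052 it carried inserted bases of its own (41.1%, 39.8 to 42.5%). Whether the program that listed the alleles favours ends at the cuts is not stated.

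The commonest nearest deletion removed bases 185 to 238, between the cuts of sites 7 and 9. It was carried by 218 alleles with 351 UMIs and stood beside 39 strings, led by G in 30 alleles. The deletion of bases 50 to 238 followed with 119 alleles, 257 UMIs and 37 strings, and that of bases 131 to 238 with 91 alleles, 120 UMIs and 24 strings. The deletion of bases 50 to 241 had 86 alleles but 258 UMIs, with 33 strings. The other six of the 10 commonest had between 52 and 66 alleles and between 19 and 23 strings. Each thus stood beside many different strings, led by G, A or GG.

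The share with 1 inserted base was similar beside most of the deletions compared here, but lower beside those joining sites 1 and 9. The share with 1 inserted base was 33.0% beside the deletion of bases 185 to 238 (26.8 to 39.7%), 31.9% beside that of bases 50 to 238 (23.7 to 41.1%) and 41.8% beside that of bases 131 to 238 (31.5 to 52.6%). By the number of bases kept before the cut, it was 28.9% for 0 to 15 kept bases (22.7 to 35.8%), 33.6% for exactly 27 (31.03 to 36.2%) and 34.3% for 54 or more (31.7 to 36.9%). These intervals overlapped. A lower share, 26.7%, was found in the 677 alleles whose nearest deletion joined sites 1 and 9 (23.4 to 30.2%). This pair had the most alleles and, at 2853, the most UMIs. The share was 34.9% of 625 alleles for sites 2 and 9 (31.1 to 38.8%). For deletions at site 9 alone it was 37.3% of 515 (33.1 to 41.6%). Both intervals lie above that of sites 1 and 9. By UMIs, a different measure, the deletion of bases 23 to 238 had 35.6% with 1 inserted base (31.9 to 39.4%). It is the largest background that joins sites 1 and 9.

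Most alleles with the insertion held 1 UMI, and their UMI numbers went with their number of events. They had 2.003 UMIs on average and a median of 1, and 3280 of 4987 had 1 UMI (65.8%, 64.4 to 67.1%). The 7780 alleles without it had 2.87 on average, a median of 1, and 1 UMI in 61.4% (60.3 to 62.5%). As written, mean UMIs beside insertions at other cuts were lower than at the last. They were 1.93 at the first cut, 1.64 at sites 2 and 9 and 1.35 at sites 3 to 8. The shares with 1 UMI there were 67.4%, 71.6% and 78.8%. An allele can stand in several of these groups, and the number of events was not held fixed. The mean without it includes 431 alleles with a single event, which averaged 14.6 UMIs. None of the alleles with the insertion had a single event. Among alleles with 2 events, the 851 with the insertion averaged 3.71 UMIs and the 2052 without it 3.22. With 3 events the means were 1.95 over 1924 alleles with the insertion and 2.04 over 2687 without it, and with 4 events 1.47 over 1302 and 1.62 over 1441. With 5 events they were 1.30 over 596 and 1.42 over 653, and with 6 events 1.26 over 253 and 1.47 over 325. With 7 events they were 1.10 over 41 and 1.36 over 107. The mean with the insertion was thus the higher one at 2 events and the lower one at 3 to 7 events. No test over samples was possible. Among alleles that kept the last target, the mean was 2.003 with the insertion and 2.15 over 2089 without it. Of these 2089 alleles, 64.1% had 1 UMI (62.0 to 66.2%).

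Insertions of 4 to 6 bases had fewer molecules per allele on average than shorter ones. Mean UMIs per allele were 2.14 for 1 base, 2.02 for 2, 1.81 for 3, 1.53 for 4, 1.52 for 5 and 1.5 for 6. The 16 alleles with 7 inserted bases had a mean of 1.88 and the 7 with 8 bases a mean of 2, so the order did not hold throughout. None of the 354 insertions of 4 or more bases had more than 7 UMIs. The maximum was 127 among the 4633 of 1 to 3 bases, a far larger group. The share of alleles with 1 UMI was 71.5% for 4 or more bases (66.5 to 76.1%) and 65.3% for 1 to 3 bases (63.9 to 66.7%). These intervals overlapped narrowly, and the difference was not tested. Mean UMIs were also lower with more bases kept between the nearest deletion and the cut. They were 3.02 for 0 to 15 bases, 2.17 for exactly 27 and 1.47 for 54 or more. Large backgrounds lie in the first 2 of these groups. The deletion of bases 23 to 250 brought 302 UMIs over 30 strings to the first group. That of bases 23 to 238 brought 646 of the 2893 UMIs, over 44 strings, to the second. How far the means rest on these backgrounds was not tested, and the number of events was not held fixed.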

How the data were processed

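Mouse liver RNA was reverse transcribed with a UMI primer and the array at Col1a1 amplified by nested PCR, per the labels' protocols. The submitters' processing notes name the build mm10. The program that listed alleles, its placement rule and its filters are not given in these sources. The authors deposited 2 lists for the library: the edits of each allele, and its UMIs of 12 bases, from which UMIs per allele were counted here. All 32342 UMIs stand under 1 allele each. Read depth is unknown, so UMI number sets the precision.

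Events were split at commas and insertions read by position. The layout (10 targets of 20 bases, a repeat unit of 27 bases, a window of 7 bases around each cut) comes from general knowledge, as no sequence of the array was used. Flanking bases come from listed substitutions. A target was kept when no deletion touching the windows of 2 or more sites took it.

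The members, strings and comparisons were chosen with earlier results of these data known. Named were the 4 single bases, the 10 commonest strings, the 16 strings of 2 bases, the 5 longest strings in alleles with at least 3 UMIs, the 10 largest alleles and the 10 commonest nearest deletions. The alternatives were UMI minimums of 2, 3 and 5, UMI weights, the largest allele left out, near-identical alleles folded, string and deletion pairs counted once, neighbouring positions counted, 1 to 3 bases only and exactly 1 other event. The merged notation was added after seeing the data. The scripts recovered 100% of 2000 simulated alleles in 4 checks (random seed 7). Python 3.11.15, numpy 2.4.6 and scipy 1.17.1 were used.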

Additional observations from a re-analysis of the deposited data

How the results depend on the processing

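Over 11 alternative settings, 33 of 89 values for 9 results lay within the interval of the reported value (for the allele number, within 1.5 times) and 56 did not. Leaving out the largest allele moved none of them beyond that. The merged notation was chosen after seeing the data. At minimums of 2, 3 and 5 UMIs there were 1707, 805 and 308 alleles, with 27.6%, 24.8% and 21.5% of UMIs. The 1-base share was then 36.1%, 37.6% and 35.7%, the A and G share 87.7%, 88.3% and 89.7%, the share of the 10 commonest strings 79.7%, 82.1% and 85.7%, and that with a first-cut insertion 20.2%, 17.8% and 14.9%. The share of kept targets with the insertion was 66.7% at 3 and 63.1% at 5 UMIs, and 24.7% of nearest deletions ended at base 238 at 5 UMIs.

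Weighting by UMIs gave 36.6% with 1 base, 87.7% A and G, 81.1% in the 10 commonest strings, 32.8% of UMIs in alleles with 1 UMI, 29.0% ending at base 238, 19.6% with a first-cut insertion and 69.0% of kept targets. Folding 771 alleles that differed by 1 inserted base gave 86.9% A and G, 25.2% ending at base 238 and 66.9% of kept targets. Each pair of string and nearest deletion counted once gave 29.4% with 1 base, 84.5% A and G, 70.4% in the 10 commonest strings and 21.5% ending at base 238; it counts common strings once per deletion. Insertions 1 base to either side gave 33.9% of UMIs, 36.6% with 1 base, 82.3% A and G, 74.3% in the 10 commonest strings and 76.95% of kept targets, and the merged notation 33.8%, 36.6%, 82.3%, 74.3% and 76.7%. Keeping 1 to 3 bases gave 29.2% of UMIs, 36.9% with 1 base, 83.1% in the 10 commonest strings and 65.5% of kept targets.

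With exactly 1 other event there were 851 alleles, 32.3% of UMIs, 27.03% with 1 base, 85.4% A and G, 66.4% in the 10 commonest strings, 49.2% with 1 UMI and 65.6% of kept targets. By construction, the 1-UMI share has no value under a UMI minimum, nor the share with a first-cut insertion at exactly 1 other event. UMI weights were not run for the allele number and the UMI share. Pairs counted once were not run for the UMI share, the 1-UMI share, the first-cut share and kept targets. No paired analysis was possible because 1 sample was analysed. With most alleles at 1 UMI, single sequencing errors and true rare strings cannot be told apart at this depth.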

Other observations

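The longest inserted strings differed from the rest in composition. They were described after their values were seen. There were 15 insertions of 12 or more bases (0.301% of insertions, exact binomial 95% interval 0.168 to 0.496%), with 16 UMIs in all. A and G made up 56.0% of their 377 bases (50.8 to 61.0%), against 93.2% of the 1505 bases in strings of 4 to 7 bases (91.8 to 94.4%) and 90.5% of the 84 bases in strings of 8 to 11 (82.1 to 95.8%). None of the 15 consisted of A and G alone, against 248 of 329 strings of 4 to 7 bases (75.4%, 70.4 to 79.9%).

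Of these 15 strings, 11 shared 8 or more consecutive bases with another of them. The 3 below are shown because they share a run of at least 27 bases, with 1 UMI each. A different run of 27 bases was shared by a string of 56 bases and another of 28 bases. These also had 1 UMI each and are not shown. Capitals mark the inserted bases.

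30 inserted bases: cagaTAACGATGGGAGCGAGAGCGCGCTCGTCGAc

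29 inserted bases: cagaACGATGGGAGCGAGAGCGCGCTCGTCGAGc

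28 inserted bases: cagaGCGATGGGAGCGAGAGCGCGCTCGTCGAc

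These strings lay in alleles of 4, 3 and 3 events. Where their bases come from was not tested.

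Other events lay near the last-cut insertion. The cut of site 9 or the position 1 base after it carried an insertion in 1185 of the 4987 alleles (23.8%, 22.6 to 25.0%). The share was 17.4% of the 2089 alleles that kept the last target without the insertion (15.8 to 19.1%) and 12.1% of all 12767 alleles (11.6 to 12.7%). Of the 7780 alleles without the last-cut insertion, 363 had one at site 9, and all 363 kept the last target. Alleles that lost the last target therefore lower the share over all alleles. The event nearest to the insertion on its left, of any kind, was a deletion in 2238 alleles (44.9%, 43.5 to 46.3%), a deletion with inserted bases in 1403 (28.1%, 26.9 to 29.4%), an insertion in 1313 (26.3%, 25.1 to 27.6%) and a substitution in 33.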
